A study of Mus musculus with 24 samples.

Results

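Genes that encode acute phase proteins are described here across mouse brain tumours. They are 9 of the 49315 genes counted, namely Lcn2, Saa1, Saa3, Serpina3n, Itih4, Cp, Hp, Lbp and Orm1. They were chosen by name, with earlier results of the same tumours known, and selected on one measured value in particular: Itih4 had been seen at a higher level after D2C7-IT at day 0. For that reason no test is given for any comparison that contains the D2C7-IT tumours of day 0, nor for Itih4 in any comparison with vehicle at day 0. Those values are a description.

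The 24 tumours grew in mouse brain from CT-vIII (CT-2A-dmEGFRvIII-Firefly Luciferase), a mouse glioma line transduced with mouse EGFR variant III and firefly luciferase, and all 8 groups carry that line. From day 6 to day 9 after implantation a pump infused 1 of 4 treatments into the brain over 72 h by convection-enhanced delivery: control solution with 100 µg rat IgG2a (vehicle), 0.2 µg of the immunotoxin D2C7-IT, the CD40 antibody αCD40 at 10 to 300 µg, or D2C7-IT+αCD40 (the combination). Tumours were taken at pump removal (day 0) or 3 days later (day 3), with 3 separate tumours in each group. Depth per tumour, in units of 1e6 counted reads, was 24.7 to 48.1 (median 37.8). Nothing is stated in the sources used here on the age and strain of the mice, the αCD40 dose of each tumour or whether the line is 1 clone. The tissue was not sorted, and in it fewer cells of a type and less RNA per cell cannot be told apart. Brain tissue made up much of it: the summed level of 10 neuron markers was 1856 to 8907 CPM (counts per 1e6 counts) over the tumours. Egfr, the receptor whose variant the line carries, was at 282.8 to 343.3 CPM in 3 tumours (vehicle day 3 replicates 2 and 3, αCD40 day 3 replicate 1) and at 13.1 to 50.8 CPM in the other 21. Results that rest on those 3 tumours are given with and without them.

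Acute phase proteins are secreted in quantity when tissue is injured or infected. The liver makes most of what circulates, under the control of interleukin-6, interleukin-1 and tumour necrosis factor, which act through the transcription factors STAT3, C/EBP and NF-kB. Several of the genes are also switched on locally: in injured brain, reactive astrocytes are known for Lcn2 and Serpina3n, and macrophages elsewhere are known for Saa3. The proteins trap iron and haem, carry lipid, inhibit proteases or bind bacterial lipopolysaccharide.

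Promoter windows of about 60 bases are shown for the 5 members that passed the filter on low counts and whose bases around the start hold a match to a binding motif of one of those 3 factor families. The searched letters were TTCNNNGAA (STAT), TTGCNNAA (C/EBP) and a 10-base NF-kB motif, on both strands of the 250 bases before to 50 bases after each gene start in the RefSeq table (GRCm38.p6), which held 7 promoters of 6 members. Capitals mark the match, and each sequence runs 5′ to 3′ on the gene's strand.
Lcn2, C/EBP, chr2:32387922-32387981, minus strand: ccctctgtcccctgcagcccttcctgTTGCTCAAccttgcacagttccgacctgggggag
Saa3, C/EBP, chr7:46715742-46715801, minus strand: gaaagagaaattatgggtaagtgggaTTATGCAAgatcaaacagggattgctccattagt
Itih4, STAT, chr14:30886399-30886459, plus strand: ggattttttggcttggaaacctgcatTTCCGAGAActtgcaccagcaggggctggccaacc
Serpina3n, NF-kB, chr12:104406511-104406572, plus strand: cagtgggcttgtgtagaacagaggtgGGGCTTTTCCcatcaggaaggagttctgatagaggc
Cp, C/EBP, chr3:19957153-19957212, plus strand: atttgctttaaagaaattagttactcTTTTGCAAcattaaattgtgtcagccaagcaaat
The first base of the match lies 216 bases before the start in Lcn2, 99 in Saa3, 51 in Itih4, 171 in Serpina3n and 70 in the second promoter of Cp. The C/EBP letters occurred in 4 of the 7 member promoters, the fourth being Saa1, and in 10.8% of all 32851 promoters of the table. STAT letters occurred in 1 of 7, against 8.3% of all promoters, and NF-kB letters in 1 of 7, against 1.63%. A match describes the sequence only and shows no binding.

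Levels below are CPM, counts scaled to 1e6 of each tumour's library after TMM normalisation, and groups are given as mean ± SD with n = 3 tumours. Log2 fold changes are given ± SE from the edgeR fit, and adjusted p-values are Benjamini-Hochberg values over all genes tested, called under 0.05. Per kilobase of exon, Serpina3n ranked first in all 8 groups, from 30.1 ± 23.7 CPM per kb in vehicle at day 0 to 177.5 ± 30.1 in D2C7-IT at day 0. Lcn2 and Cp held the next ranks in every group, in varying order. Saa3, Lbp and Hp followed at group means between 0.385 and 13.9 CPM per kb. Itih4, Orm1 and Saa1 were last in all groups, at group means of at most 0.53 CPM per kb. Neighbours in this order often overlapped between tumours. In D2C7-IT at day 0 the first 4 (Serpina3n, Lcn2, Cp, Saa3) were each above the next gene in every tumour, whereas Lbp and Hp overlapped. Of the 9 members, 8 passed the filter on low counts. Saa1 did not, with 78 counts over all 24 tumours and 3 tumours at 0.

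**Figure D1:**
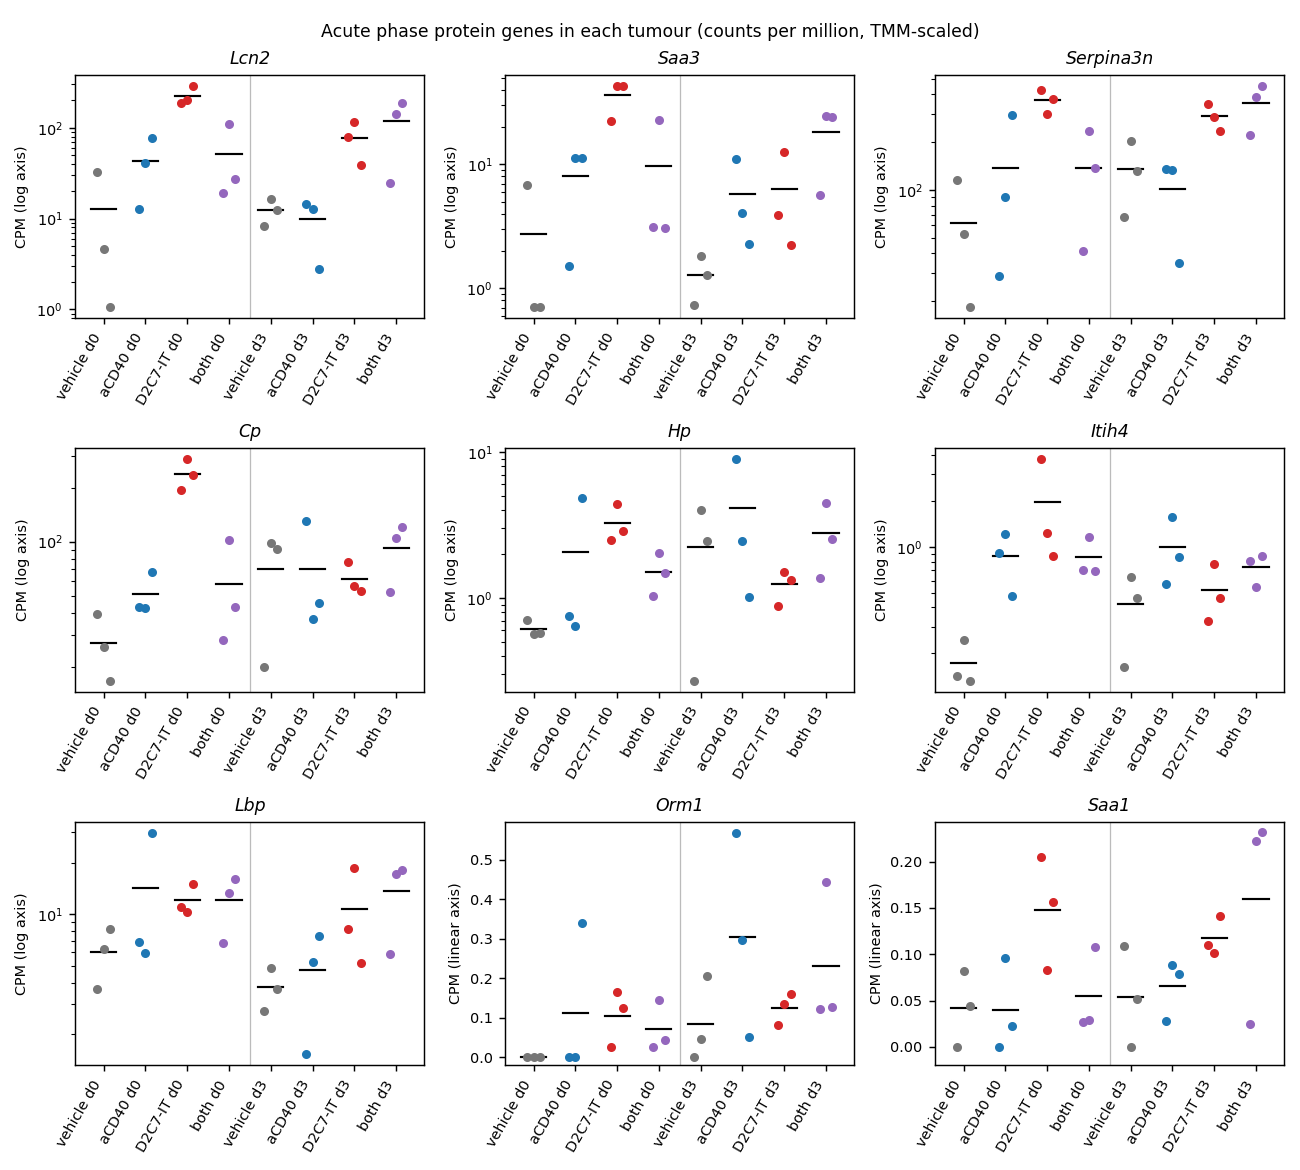
CPM of each member in each tumour (points) with the group mean (line), by treatment ("both" is the combination) at day 0 (d0) and day 3 (d3), on log axes except for Orm1 and Saa1. At day 0 the 3 D2C7-IT tumours lay above the 3 vehicle tumours for Lcn2 (187.2 to 291.5 against 1.06 to 32.9 CPM), and at day 3 both groups given D2C7-IT lay above vehicle for Lcn2, Saa3, Serpina3n and Lbp.

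Lcn2 (ENSMUSG00000026822, chr2:32384633-32388252, minus strand, GRCm38) encodes lipocalin-2, which withholds iron from bacteria by binding their siderophores. At day 0 it stood at 32.9, 4.67 and 1.06 CPM in the vehicle tumours and at 187.2, 200.7 and 291.5 in the D2C7-IT tumours. The αCD40 tumours held 12.8, 40.7 and 77.3 CPM and the combination tumours 19.0, 109.5 and 27.6. D2C7-IT tumours were thus the highest of the day with no overlap, while αCD40 and the combination overlapped with vehicle through 1 vehicle tumour. The log2 fold change of D2C7-IT over vehicle was 4.13 ± 1.09 (SE), from 12.9 ± 17.4 to 226.4 ± 56.7 CPM. Without vehicle replicate 1, the highest of its group, the value was 6.28. αCD40 and the combination lay 1.75 ± 0.99 and 2.01 ± 0.99 above vehicle on the log2 scale, with adjusted p = 1.00 for both (edgeR). Leaving out 1 tumour at a time moved these values widely, from 1.04 (without αCD40 replicate 3) to 3.90 and from 0.85 (without combination replicate 2) to 4.16, both highest without vehicle replicate 1.

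At day 3 Lcn2 was 8.19, 16.4 and 12.4 CPM in vehicle and 14.3, 12.9 and 2.79 after αCD40. It was 79.2, 115 and 39.3 CPM after D2C7-IT and 24.9, 142.8 and 185.6 after the combination. Each tumour given D2C7-IT, alone or combined, was above each that was not. The log2 fold change over vehicle was 2.65 ± 1.02 for D2C7-IT and 3.25 ± 1.04 for the combination, with edgeR adjusted p = 0.11 for both. The combination exceeded αCD40 by 3.56 ± 1.06 (adjusted p = 0.28). DESeq2 called these 3 differences, with adjusted p = 0.038, 0.018 and 0.025. Without the 3 tumours of high Egfr the log2 values were 3.26, 3.88 and 3.93.

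Saa3 (ENSMUSG00000040026, chr7:46711998-46715700, minus strand) encodes an inducible serum amyloid A, an apolipoprotein of high-density lipoprotein that can be made outside the liver. At day 0 the vehicle tumours held 6.79, 0.705 and 0.705 CPM and the D2C7-IT tumours 22.4, 43.3 and 43.0. The αCD40 tumours held 1.52, 11.2 and 11.3 CPM and the combination tumours 3.12, 22.9 and 3.05. Only D2C7-IT stood clear of vehicle in every tumour, by 3.71 ± 1.10 on the log2 scale (36.2 ± 12 against 2.73 ± 3.51 CPM), or 5.68 without vehicle replicate 1. For αCD40 (1.54 ± 1.02) and the combination (1.81 ± 1.02, edgeR adjusted p = 1.00 for both) the values were 3.50 and 3.77 without that tumour. They were as low as 1.08 without vehicle replicate 2 and 0.16 without combination replicate 2. At day 3 vehicle was at 0.733, 1.82 and 1.28 CPM, αCD40 at 11.1, 4.06 and 2.29, D2C7-IT at 3.92, 12.7 and 2.24, and the combination at 5.67, 24.7 and 24.4. Every treated tumour of day 3 exceeded every vehicle tumour. The log2 differences were 2.18 ± 1.05 for αCD40 (adjusted p = 1.00), 2.29 ± 1.05 for D2C7-IT (adjusted p = 0.16) and 3.83 ± 1.11 for the combination (adjusted p = 0.11), by edgeR. DESeq2 called the combination (adjusted p = 0.0061) and not D2C7-IT (0.082). Without the 3 tumours of high Egfr the D2C7-IT and combination values were 3.10 and 4.67. D2C7-IT replicate 2 carried much of the D2C7-IT value, which was 1.26 without it. Without vehicle replicate 1 of day 3, which leaves 2 vehicle tumours, both of high Egfr, edgeR also called the combination, with adjusted p = 0.049. The share of all genes called in that setting is not reported here.

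Saa1 (ENSMUSG00000074115, chr7:46740497-46742980, minus strand), the main circulating serum amyloid A of liver, was close to the limit of detection. It had 4, 4, 17 and 7 counts per group at day 0 and 6, 7, 14 and 19 at day 3, in the order vehicle, αCD40, D2C7-IT and combination. The ratio of D2C7-IT to vehicle was 3.63 at day 0, with a 95% counting interval of 1.18 to 14.8, and 2.39 (0.862 to 7.58) at day 3. Intervals cover counting error only. Reads of Saa1 can be split with its near copy Saa2, which had 4 to 19 counts per group. Saa4, a serum amyloid A that is little induced in the acute phase, had 0 to 2 counts in the other 6 groups but 47 after D2C7-IT and 66 after the combination at day 3, a pattern singled out after its values were seen.

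Serpina3n (ENSMUSG00000021091, chr12:104406729-104414329, plus strand) encodes a secreted serine protease inhibitor of the alpha-1-antichymotrypsin family and is a widely used marker of reactive astrocytes. At day 0 it was 115, 52.8 and 18.4 CPM in vehicle and 423, 300.2 and 375.5 after D2C7-IT. αCD40 gave 28.8, 90.2 and 294.5 CPM and the combination 41.4, 235 and 136.8. Only D2C7-IT was above vehicle in every tumour, by 2.56 ± 0.79 on the log2 scale. αCD40 and the combination each lay 1.15 ± 0.76 above vehicle (edgeR adjusted p = 1.00). The αCD40 value rested on replicate 3, and it was -0.06 without that tumour. The combination value was 0.52 without its replicate 2, and both were 1.95 without vehicle replicate 1.

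At day 3 Serpina3n was 68.1, 203.6 and 132.5 CPM in vehicle, 136.3, 133 and 34.6 after αCD40, 349.6, 287.9 and 235.3 after D2C7-IT, and 222, 383 and 453 after the combination. The lowest tumour of each group given D2C7-IT was above the highest of the others. D2C7-IT lay 1.11 ± 0.76 above vehicle (adjusted p = 0.34) and the combination 1.39 ± 0.76 (adjusted p = 0.27), and the combination lay 1.80 ± 0.77 above αCD40 (adjusted p = 0.42), all on the log2 scale by edgeR. Without the 3 tumours of high Egfr the first 2 values were 2.11 and 2.40. αCD40 was 0.41 below vehicle (log2 fold change -0.41 ± 0.75) with all tumours and 0.32 above without the 3 of high Egfr. The Serpina3 genes form a cluster of close copies, so reads may be shared among them.

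Itih4 (ENSMUSG00000021922, chr14:30886476-30902353, plus strand) encodes a heavy chain of the inter-alpha-trypsin inhibitor family, found in plasma and bound to matrix. Its levels were low. At day 0 vehicle held 0.142, 0.244 and 0.132 CPM, from 18 counts in all, and D2C7-IT 3.76, 1.23 and 0.875. αCD40 held 0.907, 1.21 and 0.476 CPM and the combination 0.705, 1.16 and 0.692. Every treated tumour was above every vehicle tumour, and αCD40 and the combination had nearly equal means, 0.866 ± 0.371 and 0.851 ± 0.264 CPM. The log2 values over vehicle were 3.46 ± 0.63 for D2C7-IT, 2.28 ± 0.62 for αCD40 and 2.26 ± 0.62 for the combination, given without a test because this gene was selected on that day. Without D2C7-IT replicate 1 the first was 2.57. The summed level of 12 endothelial markers was 321.6 to 367.1 CPM in vehicle at day 0 and 453.5 to 616.7 in the 9 treated tumours of that day, with no marker at 0, and its part in the Itih4 values was not tested.

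At day 3 Itih4 was 0.163, 0.630 and 0.463 CPM in vehicle and 0.568, 1.57 and 0.860 after αCD40. It was 0.329, 0.773 and 0.463 after D2C7-IT and 0.803, 0.543 and 0.876 after the combination. All 3 treatments overlapped with vehicle. The log2 differences were 1.24 ± 0.57 for αCD40 (edgeR adjusted p = 1.00), 0.30 ± 0.58 for D2C7-IT (adjusted p = 0.75) and 0.81 ± 0.57 for the combination (adjusted p = 0.39). Without the 3 tumours of high Egfr, which leaves 1 vehicle tumour, they were 2.89, 1.66 and 2.19.

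Cp (ENSMUSG00000003617, chr3:19957054-20009145, plus strand) encodes ceruloplasmin, a copper-carrying ferroxidase that astrocytes also hold on their membrane. At day 0 it was 39.4, 25.7 and 16.7 CPM in vehicle and 194.1, 289.3 and 234.8 after D2C7-IT. αCD40 gave 43.1, 42.5 and 67.9 CPM and the combination 28.2, 102.3 and 43.3. D2C7-IT stood 3.13 ± 0.61 above vehicle on the log2 scale with no overlap. αCD40 was also above vehicle in every tumour, by 0.91 ± 0.57, but edgeR did not call it (adjusted p = 1.00), and the combination overlapped at 1.09 ± 0.57 (adjusted p = 1.00), or 0.39 without its replicate 2.

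At day 3 vehicle was at 19.9, 98.8 and 91.1 CPM and αCD40 at 129.7, 37.0 and 45.5. The high values in these groups are those of the 3 tumours of high Egfr. D2C7-IT was at 76.6, 56.3 and 53.0 CPM and the combination at 52.2, 104.3 and 121. D2C7-IT lay at -0.17 ± 0.57 relative to vehicle on the log2 scale (edgeR adjusted p = 0.86) and at 1.65 without the 3 tumours (adjusted p = 0.80). For the combination the values were 0.40 ± 0.57 (adjusted p = 0.66) and 2.25 (0.71), and for αCD40 0.02 ± 0.57 (1.00) and 1.07 (1.00). Exons of Cp overlap those of Hps3 on the other strand, and the kit does not mark strand. Hps3 ranged from 16 to 40.1 CPM over the tumours and from 24.8 to 30.4 in D2C7-IT at day 0, against 16 to 21.6 in vehicle.

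Hp (ENSMUSG00000031722, chr8:109575128-109579172, minus strand) encodes haptoglobin, which binds free haemoglobin. At day 0 it was 0.710, 0.570 and 0.573 CPM in vehicle and 2.48, 4.41 and 2.88 after D2C7-IT. αCD40 gave 0.747, 0.639 and 4.86 CPM and the combination 1.03, 2.02 and 1.49. D2C7-IT and the combination were above vehicle in every tumour, by 2.39 ± 0.89 and 1.29 ± 0.88 on the log2 scale, the latter with edgeR adjusted p = 1.00. The αCD40 value of 1.75 ± 0.88 (adjusted p = 1.00) came mostly from replicate 3 and was 0.16 without it. At day 3 vehicle was at 0.271, 4.02 and 2.44 CPM, αCD40 at 8.95, 2.46 and 1.02, D2C7-IT at 0.876, 1.51 and 1.33, and the combination at 1.36, 4.46 and 2.52. The highest vehicle and αCD40 values are again from the tumours of high Egfr. With all tumours D2C7-IT lay 0.86 below vehicle (log2 fold change -0.86 ± 0.85, edgeR adjusted p = 0.51), and without the 3 it lay 2.19 above (0.80). Levels of 12 monocyte and macrophage markers moved with Hp: their sum was 1604 to 2882 CPM in the 3 tumours of high Egfr and 151 to 766.8 in the other 21, and their part in the Hp values was not tested.

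Lbp (ENSMUSG00000016024, chr2:158306493-158332852, plus strand) encodes the protein that hands bacterial lipopolysaccharide to CD14 and the TLR4 receptor. At day 0 it was 3.69, 6.32 and 8.20 CPM in vehicle and 11.0, 10.3 and 15.04 after D2C7-IT. αCD40 gave 6.86, 5.98 and 29.9 CPM and the combination 6.84, 13.4 and 16.1. D2C7-IT was above vehicle in every tumour, by 1.00 ± 0.65 on the log2 scale, whereas αCD40 (1.23 ± 0.65) and the combination (1.00 ± 0.65) overlapped with it and had edgeR adjusted p = 1.00. The αCD40 value rested on replicate 3 and was 0.08 without it. At day 3 vehicle was at 2.74, 4.90 and 3.70 CPM, αCD40 at 1.53, 5.27 and 7.48, D2C7-IT at 8.27, 18.6 and 5.22, and the combination at 5.87, 17.2 and 18.0. D2C7-IT and the combination were above vehicle in every tumour, by 1.49 ± 0.66 (adjusted p = 0.15) and 1.86 ± 0.66 (adjusted p = 0.12). DESeq2 gave adjusted p = 0.093 and 0.049 for them. Without D2C7-IT replicate 2 the D2C7-IT value was 0.84, and without the 3 tumours of high Egfr the D2C7-IT and combination values were 1.97 and 2.35.

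Choroid plexus and ependyma markers moved with Lbp. The summed level of 10 such genes ran from 8.98 to 1235 CPM over the 24 tumours, with none of the 10 at 0 throughout a group. At day 3 it was 27.5, 1235 and 64.5 CPM in D2C7-IT and 49.9, 608.6 and 536.5 in the combination, against 16.7 to 39.5 in vehicle. In αCD40 at day 0, replicate 3 had 919.7 CPM of these markers and 29.9 CPM of Lbp, the highest Lbp of all tumours. In vehicle at day 3, by contrast, the tumour with most Lbp (4.90 CPM) had the lowest marker sum of its group, 16.7 CPM. Over 24 tumours the log2 levels had Pearson r = 0.86 and Spearman rho = 0.82, and r was 0.84 without the 3 tumours of high Egfr. The part of this tissue in the Lbp differences was not tested.

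Orm1 (ENSMUSG00000039196, chr4:63344560-63348163, plus strand) encodes orosomucoid, an acidic plasma glycoprotein. It had 0 counts in all 3 vehicle tumours of day 0, which allows up to 3 counts over the group. On that day αCD40 held 15 counts, all in replicate 3, D2C7-IT held 1, 8 and 4, and the combination 1, 5 and 2. Against 3 counts over the vehicle group these are 4.51-fold, 3.70-fold and 2.31-fold higher. Each ratio, called the bound below, allows for counting error in vehicle only and takes the treated counts as exact. The αCD40 ratio comes from 1 tumour. At day 3 vehicle held 0, 2 and 8 counts, αCD40 20, 10 and 2, D2C7-IT 3, 4 and 8, and the combination 5, 18 and 5. The smallest edgeR adjusted p among these day 3 differences from vehicle was 0.47, for the combination. Orm2 and Orm3 are near copies with 8 to 168 and 1 to 35 counts per group, so the split of reads among the 3 genes is uncertain.

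Across the members, D2C7-IT at day 0 gave the most uniform picture: all 8 that passed the filter were above vehicle in every tumour, with log2 fold changes from 1.00 (Lbp) to 4.13 (Lcn2) apart from Orm1. The share of all 22280 genes tested that lay above vehicle in every tumour was 11%. The members' median was 3.30 on the log2 scale, or 2.85 with Orm1 at its bound, and that of all genes was -0.01. The choice of members used this contrast, so nothing is read from these counts.

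Of the 7 members tested after αCD40 at day 0, Cp was above vehicle in every tumour, against 3.99% of all genes. Itih4 was also above, but it was selected on a comparison with the same vehicle tumours, so it is described only. The median log2 fold change of the 8 members, Itih4 included, was 1.64, also with Orm1 at its bound, and that of all genes 0.00. Because Itih4 is among the 8, nothing is read from this median or from that of the combination below. Of the 7 tested, 0 were called by edgeR, as were 0% of all genes. At an unadjusted p under 0.05 there was 1 member higher (Orm1, through a single tumour) and 0.929% of all genes higher. After the combination at day 0, Hp and Orm1 of the 7 tested were above vehicle in every tumour, against 5.45% of all genes. For Orm1 this rested on 1, 5 and 2 counts against 0 in each vehicle tumour. Itih4 was also above and is again described only. The median of the 8, Itih4 included, was 1.55 (1.25 with Orm1 at its bound) against 0.02 for all genes. EdgeR called 0 of the 7 tested, 0 had an unadjusted p under 0.05 (3.03% of all genes did, in either direction), and DESeq2 called 0 in both comparisons, with no adjusted p for Orm1.

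Beside D2C7-IT alone, the combination at day 0 was lower. Lcn2, Hp, Serpina3n and Cp were below D2C7-IT in every tumour, 4 of 8 members, against 8.53% of all genes. The D2C7-IT tumours of day 0 took part in the choice of members, so nothing is read from this count. The log2 fold changes were -2.12 ± 0.99 for Lcn2, -2.05 ± 0.59 for Cp, -1.41 ± 0.76 for Serpina3n and -1.10 ± 0.85 for Hp. Saa3 (-1.90 ± 1.02) and Itih4 (-1.20 ± 0.56) overlapped. Lbp showed no difference in mean, 12.1 CPM in each group. Combination replicate 2 was the highest of its group for Lcn2, Saa3, Serpina3n, Cp, Hp and Itih4, and without it the Lcn2 and Saa3 values were -3.28 and -3.55. Without D2C7-IT replicate 1 the Itih4 value was -0.31. The combination differed little from αCD40 alone on that day: the members' median was -0.01, and edgeR called 0 of 8 (0% of all genes), with 0 at an unadjusted p under 0.05 (0.884% of all genes) and 0 by DESeq2.

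**Figure D2:**
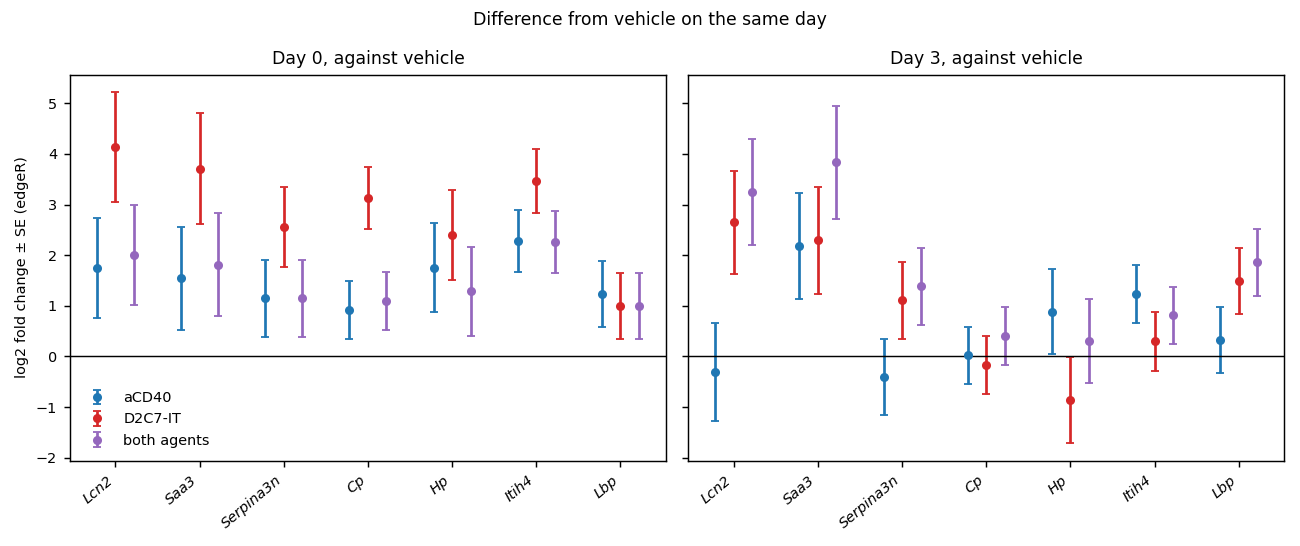
Log2 fold change from vehicle of the same day (points, edgeR) with its SE (bars) for 7 members after αCD40, D2C7-IT or both agents, at day 0 (left) and day 3 (right). At day 0 the D2C7-IT value was the highest of the 3 for 6 of the 7, Lbp being the exception (its αCD40 value was 0.08 without replicate 3), and at day 3 the combination was the highest for Lcn2, Saa3, Serpina3n, Lbp and Cp.

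At day 3 the separation from vehicle was seen for 4 members, Lcn2, Saa3, Serpina3n and Lbp. Each was above vehicle in every tumour after D2C7-IT (4 of 8 members, 7.43% of all genes) and after the combination (4 of 8, 8.06% of all genes). EdgeR called 0 of 8 members in either comparison, where it called 0% and 0.0404% of all genes. Lcn2, Saa3 and Lbp had an unadjusted p under 0.05 in both, 3 of 8 members, against 9.96% and 7.09% of all genes on the higher side. DESeq2 called 1 member higher after D2C7-IT (Lcn2, 2.18% of all genes) and 3 after the combination (Lcn2, Saa3 and Lbp, 1.22%). Shares for DESeq2, here and below, are over 38804 genes, many of low counts, and those for edgeR over the 22280 that passed the filter. The 38804 include genes to which DESeq2 gave no adjusted p, Orm1 among them here. Such genes could not be called, and they lower the shares. The DESeq2 shares are therefore not directly comparable with those of edgeR. The members' median log2 fold change was 0.84 and 1.41, against 0.02 and 0.01 for all genes, and 2.15 and 2.89 without the 3 tumours of high Egfr.

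After αCD40 at day 3, Saa3 alone was above vehicle in every tumour, 1 of 8 against 1.58% of all genes. EdgeR called 0 of 8 and 0% of all genes, DESeq2 called 0, and 1 member (Itih4) had an unadjusted p under 0.05, against 1.52% of all genes. The combination exceeded αCD40 in every tumour for Lcn2 and Serpina3n, 2 of 8 against 4.97% of all genes. There edgeR again called 0 of 8 and 0% of all genes, 3 members had an unadjusted p under 0.05 (Lcn2, Serpina3n and Lbp, with 3.66% of all genes higher), and DESeq2 called 1 (Lcn2, with 0.327%). Against D2C7-IT at day 3, all 8 members had a positive log2 fold change in the combination with a median of 0.59, but all 8 overlapped. None was called by edgeR (0% of all genes) or DESeq2, and 0 had an unadjusted p under 0.05 (2.44% of all genes).

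Between the days, the differences of vehicle tumours moved without those of high Egfr in ways that varied by member. Saa3 lay at -1.11 ± 1.03, Lbp at -0.68 ± 0.65 and Lcn2 at -0.07 ± 0.96 at day 3 against day 0 on the log2 scale (edgeR adjusted p = 0.45, 0.47 and 0.97). Without the tumours of high Egfr they lay further below 0, at -1.94, -1.15 and -0.68. Serpina3n lay at 1.12 ± 0.76 (edgeR adjusted p = 0.30), and at 0.12 without the tumours of high Egfr. Hp lay 1.85 ± 0.88 and Cp 1.36 ± 0.58 higher at day 3 on the log2 scale (edgeR adjusted p = 0.17 and 0.13), and -1.19 and -0.47 without these tumours, which leaves vehicle replicate 1. Without that replicate instead, which leaves the 2 vehicle tumours of high Egfr at day 3, edgeR called both, with adjusted p = 0.030 for Hp and 0.016 for Cp. The share of all genes called in that setting is not reported here, so nothing is read about the members from these calls. With all tumours it called 0 of 7 members (0% of all genes) and DESeq2 0. Hp and Cp had an unadjusted p under 0.05, 2 of 7, against 22% of all genes higher.

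In D2C7-IT tumours, Lcn2, Saa3, Hp, Itih4 and Cp were lower at day 3 than at day 0 in every tumour, 5 of 8 members against 6.36% of all genes. The day 0 tumours took part in the choice of members, so nothing is read from this count. The log2 fold changes were -1.54 ± 0.98, -2.53 ± 1.04, -1.39 ± 0.85, -1.91 ± 0.57 and -1.95 ± 0.59. The Itih4 value was -1.02 without replicate 1 of day 0. Serpina3n (-0.33 ± 0.75) and Lbp (-0.18 ± 0.64) overlapped between the days. In the combination the Lcn2 means were 52.0 ± 49.9 CPM at day 0 and 117.8 ± 83.2 at day 3, and those of Serpina3n were 137.7 ± 96.8 and 352.7 ± 118.5 CPM. Both genes overlapped between days, and edgeR called 0 of 8 members there (0% of all genes), with 0 at an unadjusted p under 0.05 (4.66% of all genes) and 0 by DESeq2. The test of whether an effect over vehicle differed between days called 0 of 7 members for αCD40 (0% of all genes) and 0 of 7 for the combination (0%). No member had an unadjusted p under 0.05 in those tests, against 1.22% and 8.05% of all genes, and DESeq2 called 0 in both. Without the 3 tumours of high Egfr some of these log2 differences changed sign. For the combination they went from -0.98 to 2.10 (Hp), -0.68 to 1.17 (Cp) and -3.05 to 1.71 (Orm1). For αCD40 they went from -0.87 to 0.92 (Hp), -0.89 to 0.16 (Cp), -3.43 to 0.48 (Orm1) and -1.04 to 0.61 (Itih4). The other members kept their sign. The test between days was not run for D2C7-IT, whose day 0 tumours took part in the choice.

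Cytokines that induce acute phase genes were also at their highest means of day 0 after D2C7-IT for Il6, Il1a, Tnf and Lif. Of 11 listed, 9 passed the filter, and all 9 were above vehicle in every D2C7-IT tumour (11% of all genes were), with a median log2 fold change of 3.29. The lists, here and below, were chosen with earlier results of these tumours known. Nothing is therefore read from their counts or medians for D2C7-IT at day 0. Il6, the main inducer in liver, was 0.0710, 0 and 0.0441 CPM in vehicle and 3.92, 6.11 and 2.31 after D2C7-IT. In the combination it was 0.163, 2.14 and 0.195 CPM, highest in replicate 2, the tumour that was also highest for Lcn2 and Saa3. Il1a stood at 2.13 ± 0.94 CPM in vehicle and 22.04 ± 6.3 after D2C7-IT, Tnf at 0.733 ± 0.461 and 18.3 ± 9.4, and Lif, a cytokine of the interleukin-6 family, at 0.855 ± 0.628 and 23.1 ± 5.6. After αCD40 at day 0 the median of the 9 was 0.25, and 1 was above vehicle in every tumour. At day 3 the list was mixed: 4 of 9 were higher and 5 lower after D2C7-IT (median -0.29), and 5 and 4 after the combination (median 0.30). The sum of the 11 in vehicle at day 3 was 8.33 CPM in replicate 1 and 113.3 and 135.1 in the 2 tumours of high Egfr. It was 186.3, 25.9 and 23.2 CPM after D2C7-IT and 30.2, 94.9 and 33.5 after the combination. The part of the 2 vehicle tumours of high Egfr in these medians was not tested. EdgeR and DESeq2 called 0 of the list in the 5 tested comparisons with vehicle, where edgeR called at most 0.0404% of all genes. At an unadjusted p under 0.05 the list had 0 after αCD40 on either day, against 0.929% and 1.52% of all genes higher. After the combination at day 0 it had 3 higher, against 3.03% of all genes in either direction. After D2C7-IT at day 3 it had 2 higher and 1 lower (9.96% and 18.3% of all genes). After the combination at day 3 it had 2 higher (7.09%).

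**Figure D3:**
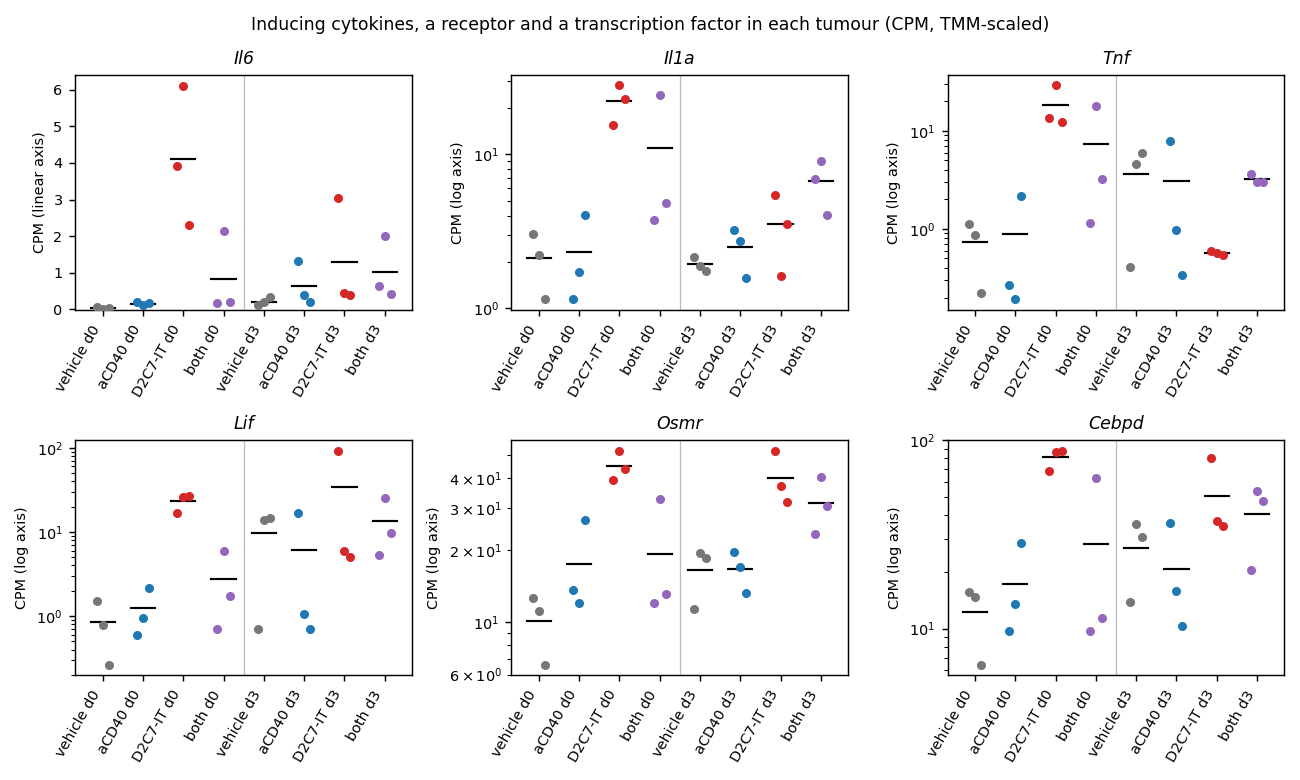
CPM in each tumour (points) with the group mean (line) for the cytokines Il6, Il1a, Tnf and Lif, the oncostatin M receptor Osmr and the transcription factor Cebpd, on log axes except for Il6. At day 0 the D2C7-IT tumours were above all vehicle tumours for each of the 6, and the combination's highest tumour was replicate 2 for each.

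Among receptors of these cytokines, Osmr was at 10.1 ± 3.1 CPM in vehicle and 45.0 ± 6.6 after D2C7-IT at day 0, and at 16.4 ± 4.5 and 40.2 ± 10.3 at day 3. The day 3 log2 difference was 1.29 ± 0.39 (edgeR adjusted p = 0.08), and for the combination 0.94 ± 0.38 (0.15). EdgeR called 0 of the 10 receptors at day 3 after D2C7-IT or the combination, 3 having an unadjusted p under 0.05 on the higher side in each (Lifr, Osmr and Il1rap), against 9.96% and 7.09% of all genes. DESeq2 called 2 higher after D2C7-IT (Osmr and Lifr, 2.18% of all genes) and 1 after the combination (Lifr, 1.22%). Downstream, 18 of 18 transcription factors and feedback genes had a positive log2 fold change after D2C7-IT at day 0, with a median of 1.42. Of them 13 were above vehicle in every tumour (11% of all genes were), and again nothing is read from this. Cebpd, which encodes C/EBP delta, was at 12.3 ± 5.1 CPM in vehicle and 80.8 ± 10.8 after D2C7-IT, Stat3 at 86.8 ± 12.4 and 228.2 ± 18.8, and Bcl3, a regulator of NF-kB, at 2.96 ± 2.03 and 27.0 ± 3.8. At day 3 the median of the 18 was -0.01 after D2C7-IT and -0.09 after the combination, and edgeR called 0 (0% and 0.0404% of all genes). The sum of the 18 in vehicle at day 3 was 567.3 CPM in replicate 1 and 1582 and 1548 in the 2 tumours of high Egfr. It was 1977, 1101 and 848.8 CPM after D2C7-IT and 1038, 1797 and 1349 after the combination. The part of the 2 vehicle tumours of high Egfr in these medians was not tested. At an unadjusted p under 0.05 there were 2 higher and 2 lower after D2C7-IT (9.96% and 18.3% of all genes) and 1 higher after the combination (7.09%). DESeq2 called 1 higher in each (Fos), against 2.18% and 1.22% of all genes.

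Other genes of the acute phase were then described in the same way. Of 27 listed, 17 passed the filter, and 13 of these were above vehicle in every D2C7-IT tumour of day 0 (11% of all genes). Their median log2 fold change was 2.04, and nothing is read from these day 0 values. Ptx3, which encodes the locally made pentraxin 3, was at 1.02 ± 0.92 CPM in vehicle and 76.2 ± 11.7 after D2C7-IT, and the metallothionein gene Mt2 at 67.7 ± 9.4 and 212.7 ± 33.6. At day 3, 7 were above vehicle in every D2C7-IT tumour (7.43% of all genes) and 5 in every combination tumour (8.06%). Ptx3 was then 2.82 ± 1.14 CPM in vehicle, 39.2 ± 48.0 after D2C7-IT, with 94.3 in replicate 1 (log2 3.79 ± 1.26, edgeR adjusted p = 0.086), and 20.8 ± 17.1 after the combination (2.88 ± 1.22, 0.16). Serpina3g and Serpina3f, relatives of Serpina3n, had lower means after D2C7-IT than in vehicle at day 3, at 0.683 ± 0.421 against 16.3 ± 13.4 CPM and 0.465 ± 0.383 against 4.16 ± 3.39, but overlapped with vehicle, whose high values are those of the 2 tumours of high Egfr (edgeR adjusted p = 0.08 and 0.09). EdgeR called 0 of the 17 in either day 3 comparison, with 7 higher and 3 lower at an unadjusted p under 0.05 after D2C7-IT (9.96% of all genes were higher and 18.3% lower) and 6 higher after the combination (7.09%). DESeq2 called Orm2 and Ptx3 higher and Serpina3g and Serpina3f lower after D2C7-IT, and Hpx higher after the combination. Of all genes it called 2.18% and 1.22% higher in these 2 comparisons. The shares it called lower, here and below, are not reported, so nothing is read from the members of a list it called lower. Among 15 receptors and partners of the member proteins, 3 had a positive and 12 a negative log2 fold change after D2C7-IT at day 3. EdgeR called 0, 5 were lower at an unadjusted p under 0.05 (18.3% of all genes), and DESeq2 called 1, Slc40a1. This iron exporter gene was below vehicle in every tumour (7.78 ± 2.04 against 12.6 ± 1.2 CPM, log2 -0.70 ± 0.26, edgeR adjusted p = 0.10). The share of all genes below vehicle in every tumour is not reported here. The 15 summed to 1544 CPM in vehicle replicate 1 of day 3 and to 1995 and 1946 in the 2 vehicle tumours of high Egfr. After D2C7-IT they summed to 1331, 1399 and 1543 CPM. The part of those 2 vehicle tumours in the negative values was not tested.

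Of 10 genes whose proteins fall in plasma during the acute phase, 6 passed the filter, and after D2C7-IT at day 0 they split into 3 higher and 3 lower, with a median of 0.10. At day 3 the median was 0.56 after D2C7-IT (4 of 6 higher) and 0.67 after the combination (5 of 6). EdgeR called 0 in both (0% and 0.0404% of all genes). At an unadjusted p under 0.05, 2 were higher and 1 lower after D2C7-IT (9.96% and 18.3% of all genes), and 1 was higher after the combination (7.09%). DESeq2 called Ttr, the transthyretin gene and also a choroid plexus marker, higher in both (2.18% and 1.22% of all genes). It called Apoa2 lower after D2C7-IT, for which the share of all genes is not reported here. Ttr was 0.712, 1077 and 0.524 CPM after D2C7-IT and 2.00, 492.5 and 422.7 after the combination, against 0.516, 1.19 and 1.31 in vehicle. Apoa2, an HDL apolipoprotein gene, was 0.437 ± 0.070 CPM after D2C7-IT and 1.22 ± 0.43 in vehicle.

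Markers of other cell types also differed between groups. The summed level of 12 hepatocyte markers was 0.369 to 4 CPM over the tumours, with Cyp3a11 at 0 in every group, and Alb, the gene of serum albumin, was at most 0.345 CPM. The sum was 1.61 to 1.68 CPM in D2C7-IT and 0.617 to 1.09 in vehicle at day 0, and 1.63 to 4 against 0.77 to 1.19 at day 3. DESeq2 called F2, the prothrombin gene, higher at day 3 after D2C7-IT (1.25 ± 0.73 against 0.0614 ± 0.0542 CPM) and after the combination. Of all genes it called 2.18% and 1.22% higher there. The 14 neutrophil markers summed to 37.9 to 43.6 CPM in D2C7-IT and 11.95 to 31.6 in vehicle at day 0, mostly through Csf3r (32.3 ± 2.6 and 18.4 ± 10.7 CPM). The other 13 summed to 7.07 to 8.83 CPM in D2C7-IT and 0.661 to 1.30 in vehicle. Of the 9 of 14 that passed the filter, 9 had a positive log2 fold change, with a median of 2.26, and 6 were above vehicle in every tumour (11% of all genes were). As for the other lists, nothing is read from this day 0 count. Ly6g was at 0 in all vehicle tumours and at most 0.0568 CPM in any tumour. DESeq2 called S100a8, a neutrophil calprotectin subunit gene, higher after αCD40 and after the combination at day 0. At day 3 it called S100a9 higher after D2C7-IT, and S100a8, S100a9 and Mpo after the combination. Its shares of all genes higher were 2.18% and 1.22% at day 3, and those of day 0 are not reported here. EdgeR called 0 of the 9 in each of these comparisons. At day 3, 6 of the 9 were higher and 3 lower after D2C7-IT (median log2 0.20). After the combination 7 were higher and 2 lower (median 1.29). The sum of 10 reactive astrocyte markers was 2103 to 2933 CPM in D2C7-IT at day 0 and 534.9 to 1540 in vehicle, and at day 3 it was 947.8, 3631 and 3607 in vehicle, highest in the tumours of high Egfr. The sum of the 10 cell cycle markers, Egfr among them, was 1519 to 1834 CPM in those 3 tumours and 30.2 to 208.8 in the others. No test of their part in the members' levels was made.

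Levels of the members were compared over the 24 tumours, as a description. The tumours share treatment groups, and log2 CPM with a prior count of 2 was used throughout. Lcn2 ran with Serpina3n (r = 0.88, rho = 0.88) and with Saa3 (r = 0.87, rho = 0.89), and after each group's mean was removed r was 0.87 and 0.89. Hp ran with Orm1 (r = 0.83), whose counts were low, and with Cp (r = 0.77). Itih4 had its highest value with Saa3 (r = 0.57), which was 0.01 within groups. Lbp reached 0.55 with Lcn2 and 0.17 within groups.

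**Figure D4:**
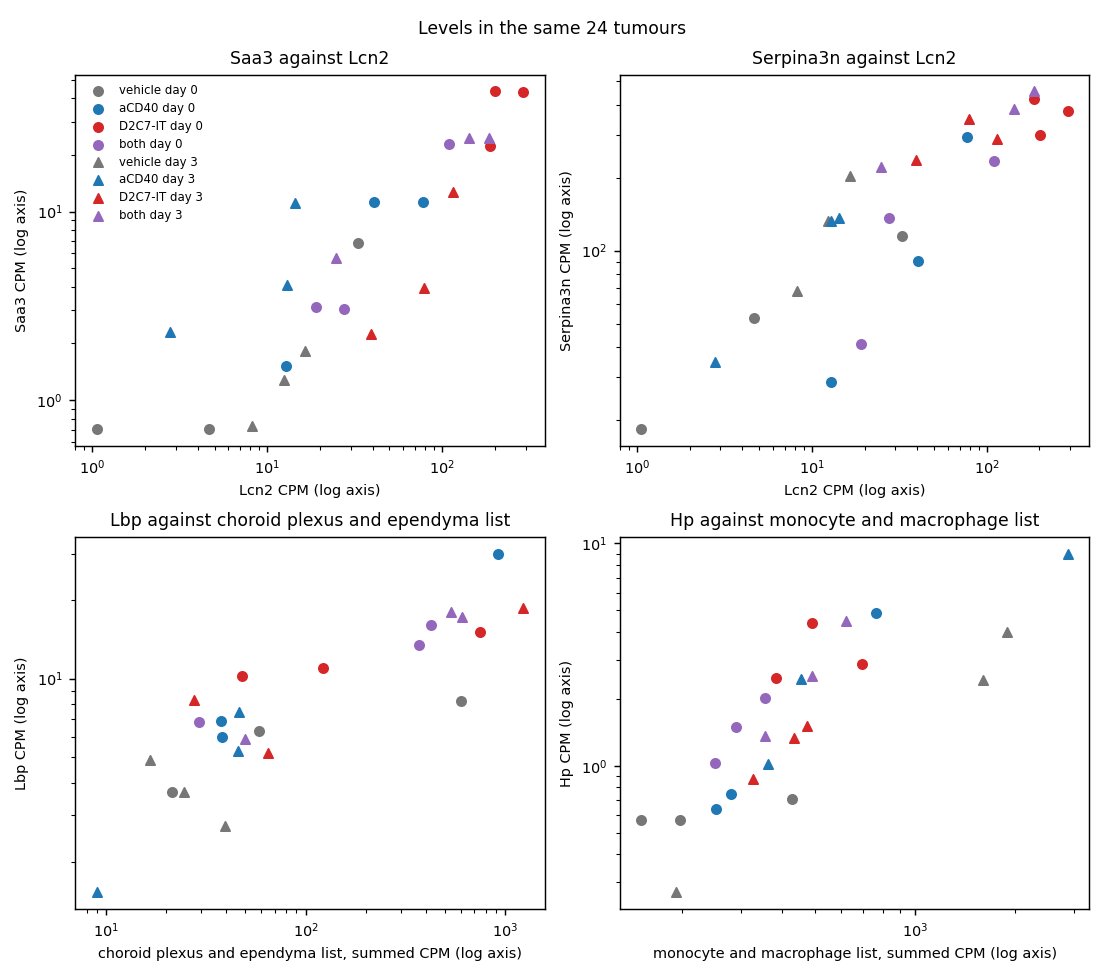
Levels in each of the 24 tumours on log axes, coloured by treatment, with circles for day 0 and triangles for day 3: Saa3 and Serpina3n against Lcn2, Lbp against the summed choroid plexus and ependyma markers, and Hp against the summed monocyte and macrophage markers. Pearson r of the log2 levels was 0.87, 0.88, 0.86 and 0.82.

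Among 16022 genes of sufficient level, the 3 most like each member in Pearson r over the 24 tumours were as follows. For Lcn2 they were Steap4 (0.89), a metalloreductase gene, Serpina3n (0.88) and Saa3 (0.87), and for Saa3 they were Lcn2 (0.87), Cd302 (0.83) and Icosl (0.83). For Serpina3n they were Tgm1 (0.94), A2m (0.92) and Klk6 (0.91), and for Cp Tnfaip2 (0.95), Rras (0.94) and Nlrp3 (0.94). For Hp they were Bst1, Cfb and Gsap (0.92, 0.92 and 0.91). Lbp was most like Drc7 (0.88), Col8a2 (0.88) and Dnah6 (0.84), of which Drc7 and Dnah6 encode parts of motile cilia. Itih4 was most like the vessel genes Vwf (0.79) and Selp (0.75) and like Disc1 (0.70), and its r with Vwf was 0.33 after removal of the group means, so that this likeness lay mostly between groups. Without the 3 tumours of high Egfr, r stayed at or above 0.70 for all of these 21 pairs.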

How the data were processed

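The authors deposited whole-number read counts per Ensembl gene, not normalised, in 6 tables whose 36 columns include 12 repeats. Per the submitters' processing notes, the tools were bcl2fastq 2.17, Trimmomatic 0.36, STAR 2.5.2b and featureCounts (Subread 1.5.2) on GRCm38. On the annotation release and strand setting nothing is stated in the sources used here. Symbols, positions and exon lengths came from GENCODE M21. Counts were fitted in R 4.3.3 with edgeR 4.0.16 (filterByExpr, 22280 genes, TMM, robust quasi-likelihood F test, 8 group means over all 24 tumours, 16 residual degrees of freedom), with Benjamini-Hochberg adjustment over all genes tested, and calls at 0.05. DESeq2 1.42.0 was an alternative, as were RLE scaling, no filter, only the groups compared, a replicate block, leaving out each tumour, and leaving out the 3 tumours of high Egfr. The script was tested on simulated data. The members and the 20 context and marker lists were chosen with earlier results of these data known. From a list, up to 4 genes of smallest p with at least 1 CPM in the higher group are named, and for likeness the 3 genes of highest Pearson r. The NF-kB motif is given by name alone. Replicates are separate tumours per the labels. Precision is limited by n = 3 and, for Saa1, Orm1 and Itih4, by counts.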

Additional observations from a re-analysis of the deposited data

How the results depend on the processing

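The count of members called by edgeR was 0 in all 12 tested comparisons and stayed 0 with RLE scaling, without the filter, with only the groups compared and without the 3 tumours of high Egfr. DESeq2 called 1 member for D2C7-IT against vehicle at day 3, 3 for the combination against vehicle at day 3 and 1 for the combination against αCD40 at day 3. Leaving out 1 tumour at a time gave 0 to 1 called for the combination against vehicle at day 3 and 0 to 2 for vehicle at day 3 against day 0. The higher count in each came without vehicle replicate 1 of day 3, which leaves the 2 vehicle tumours of high Egfr. Shares of all genes called in that setting are not reported here. Without the 3 tumours of high Egfr the log2 fold change turned to 2.19 for Hp and 1.65 for Cp (D2C7-IT against vehicle, day 3), 0.32 for Serpina3n (αCD40 against vehicle, day 3), 0.69 for Hp and 0.44 for Orm1 (combination against αCD40, day 3), and -1.19 for Hp, -0.47 for Cp and -0.11 for Itih4 (vehicle, day 3 against day 0). The differences of an effect between days that changed sign are given above. The cause was not tested. Without the filter Cp after αCD40 at day 3 was -0.01. Further values had a range across 0 when 1 tumour was left out: after αCD40 at day 0, Serpina3n -0.06 to 1.95. After αCD40 at day 3, Lcn2 ran from -0.66 to 0.14, Hp from -0.37 to 1.64, Serpina3n from -0.73 to 0.04, Lbp from -0.15 to 0.76 and Cp from -0.75 to 0.39. After D2C7-IT at day 3, Itih4 ran from -0.08 to 0.74 and Cp from -0.61 to 0.19. For the combination at day 3, Hp ran from -0.21 to 1.07 and Cp from -0.04 to 0.77 against vehicle, and Hp from -1.09 to 0.69, Itih4 from -0.71 to 0.05 and Orm1 from -1.25 to 0.43 against αCD40. Lbp ran from -0.26 to 0.29 for the combination against D2C7-IT at day 0, and for D2C7-IT at day 3 against day 0 Lbp ran from -0.84 to 0.15 and Orm1 from -0.21 to 0.78. For vehicle at day 3 against day 0, Lcn2 ran from -0.61 to 2.08 and Saa3 from -1.57 to 0.86.

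With the replicate number as a block, 0 members were called in the 12 tested comparisons, and the members' median for D2C7-IT against vehicle at day 0 was 3.32. In 0 of 13 comparisons did every pair of same-numbered tumours correlate above 0.1, so the numbers were not taken as pairs.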
